A study of Mus musculus with 4 samples.

Results

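Myl2, Myl3 and Myl4 encode the cardiac myosin light chains examined here for TFIIB occupancy. TFIIB is a general transcription factor that helps to recruit RNA polymerase II to promoters. The 3 genes were taken by name from a table of 14469 genes, together with the 10 of 20364 merged TFIIB regions that name them. The choice was made by name and not by a measured value, although earlier results of these data were known at the time. The series holds chromatin immunoprecipitation and sequencing (ChIP-seq) libraries from whole hearts of C57BL/6 mice, made with the anti-GTF2B antibody sc-225, and 1 library of input DNA made without antibody. The adult group is the normal heart at 12 weeks. The TAC group is the heart of 12-week-old male mice 4 days after transaortic coarctation, a narrowing of the aorta that loads the left ventricle. The neonate group is the heart at 1 to 2 days, during normal postnatal growth. Each group has 1 library, and the labels give neither the number of hearts in a library nor the sex of the adult and neonatal mice.

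The library codes in the tables match no sample label, so every value below is taken over the 3 ChIP libraries together, and no difference between adult, TAC and neonatal hearts was measured. There is no replicate error and no test. A whole heart mixes atria and ventricles and many cell types, so signal per cell and the number of cells that carry it cannot be told apart. The heart label was checked against marker genes. Of 7 cardiomyocyte markers, 6 had a TFIIB region with its centre at most 1000 bp from the start, and in all 7 the start lay inside a region, against 75.6% of all genes in the table. The same distance was met by 49.4% of protein-coding genes, so these few markers are a weak check. A region centred that close was found at 2 of 7 skeletal muscle markers, Actn3 and Ckm, at 4 of 5 smooth muscle, 3 of 4 fibroblast, 4 of 4 endothelial and 4 of 4 macrophage markers, and at 0 of 6 erythroid markers. The tables do not give sequencing depth.

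Myosin of striated muscle is built from a pair of heavy chains, each of which carries 1 essential and 1 regulatory light chain on the neck that links its motor head to the filament. In the mouse, Myl2 encodes the regulatory light chain of the ventricle, the one phosphorylated by the cardiac light chain kinase Mylk3. Myl3 encodes the essential light chain of the ventricle, which is shared with slow skeletal muscle. Myl4 encodes the essential light chain of the atrium and of fetal muscle, and Myl7 the regulatory light chain of the atrium. TFIIB binds with TATA-binding protein at the core promoter, so its ChIP signal is commonly read as a mark of initiation complexes.

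The upstream sequences of Myl3 and Myl4 show how unlike the promoters under their TFIIB regions are. They are the 250 bases before the RefSeq start, printed 5′ to 3′ on the plus strand of GRCm38.p6. The TFIIB positions in this report are in mm9 and are not comparable with these coordinates by number. Capitals mark matches, on either strand, to the CCAAT box (CCAAT), the GATA core (GATAA), the M-CAT core (CATTCC) and the CArG box, the site of serum response factor. The TATA box (TATAAA) and the MEF2 site were also searched and had no match. Only the exact letters TATAAA were searched, so the absence of a match does not mean that a TATA-like sequence is absent. E-boxes (CANNTG) were searched but are left in lower case.
Myl3, chr9:110763428-110763677: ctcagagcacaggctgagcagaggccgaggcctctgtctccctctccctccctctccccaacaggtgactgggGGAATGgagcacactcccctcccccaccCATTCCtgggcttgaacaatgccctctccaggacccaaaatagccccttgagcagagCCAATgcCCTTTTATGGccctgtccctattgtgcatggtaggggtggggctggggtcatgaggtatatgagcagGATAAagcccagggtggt
Myl4, chr11:104550413-104550662: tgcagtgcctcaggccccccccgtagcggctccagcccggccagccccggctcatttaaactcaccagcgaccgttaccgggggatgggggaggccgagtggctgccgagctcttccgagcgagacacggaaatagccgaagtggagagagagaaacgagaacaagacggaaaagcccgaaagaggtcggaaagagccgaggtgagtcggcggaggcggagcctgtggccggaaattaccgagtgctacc
No Myl2 sequence is printed, because neither of the RefSeq starts listed for it gives the gene length in the deposited table. For Myl3 and Myl4 the RefSeq distance from start to gene end differed from the deposited gene length by 11 and 4 bp.

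The Myl3 promoter held few CG dinucleotides and several muscle-type motifs, and the Myl4 promoter the reverse. The printed 250 bases contained 1 CG dinucleotide in Myl3 and 23 in Myl4, against a median of 6 and an interquartile range of 2 to 16 over 32851 RefSeq promoters. Their GC content was similar, 59.6% in Myl3 and 63.6% in Myl4, with a median of 52.4% over all promoters. In Myl3 a CArG box lay at -85 to -76 from the start, next to a CCAAT box at -92 to -88 on the plus strand. The CArG box was present in 1.63% of all promoters of the same 300 bases, which run from 250 before to 50 after the start, and the CCAAT box in 37.4%. Myl3 also held M-CAT cores at -177 to -172 and -149 to -144 (motif present in 14.7% of promoters), a GATA core at -18 to -14 (25.4%) and an E-box at -189 to -184 (72.3%). Of the motifs searched, Myl4 held only a CCAAT box, at 20 to 24 bases after the start. A TATA box was found in 13.6% and a MEF2 site in 1.86% of promoters. A match describes letters in this window and is not a binding site.

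Myl2, on chromosome 5 (mm9, 122550988 to 122556863, plus strand), lay almost wholly inside merged TFIIB regions. It was assigned 5 regions, against a median of 1 per gene, and 4.18% of genes had 5 or more. None of the 5 regions held a CpG island, as was true of the regions of 15.5% of genes. The region over the start, chr5:122550354-122555574, was 5220 bp long and built from 5 called intervals. Of all regions, 1.33% had 5 or more intervals, and the length stood at the 99.73rd percentile. A further 3 regions followed without a large break, at chr5:122555758-122557609, chr5:122557666-122560548 and chr5:122560653-122562314, each of 1 interval. These 4 regions filled 11614 of 11960 bp, with gaps of 57 to 184 bp, and ran past the end of Myl2 into Ccdc63, a convergent coiled-coil gene.

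At the Myl2 start 3 called intervals lay close together, although their region was centred 1976 bp downstream. Closeness of call positions does not give the width of the signal. The gene table gives a position for every called interval, and an interval was called in 1 library. At Myl2 the positions nearest the start were -44, -12 and -12 bp. Positions lay on a 16 bp grid in 97.26% of cases, so the 3 calls fell within 32 bp of each other, 2 grid steps. Intervals this close were counted as 1 from each library, although the library names themselves were not read. Among 35528 intervals in the gene table, 5342 opened a window of 300 bp with 3 or more intervals, and 0 of these windows held more than 3, the number of ChIP libraries. Counted this way, TFIIB was called at the Myl2 start in each of the 3 ChIP libraries, but no call was tied to a named group. At least 3 positions within 100 bp of the start were found at Myl2 and Myl3 and in 16.3% of all genes.

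A second Myl2 site lay upstream of the gene start given in the deposited table. Its region, chr5:122542306-122545096, had 4 intervals and no CpG island, was centred at -7287 bp and named no other gene. Positions of 3 of its intervals were -6428, -6380 and -6252 bp, a span of 176 bp, and the fourth was at -7308 bp. Within the gene a pair of intervals lay at 1663 and 1764 bp. The remaining positions, 5908, 8532 and 9844 bp, stood alone, so each of those 3 regions was called in 1 library, which cannot be named here.

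**Figure D1:**
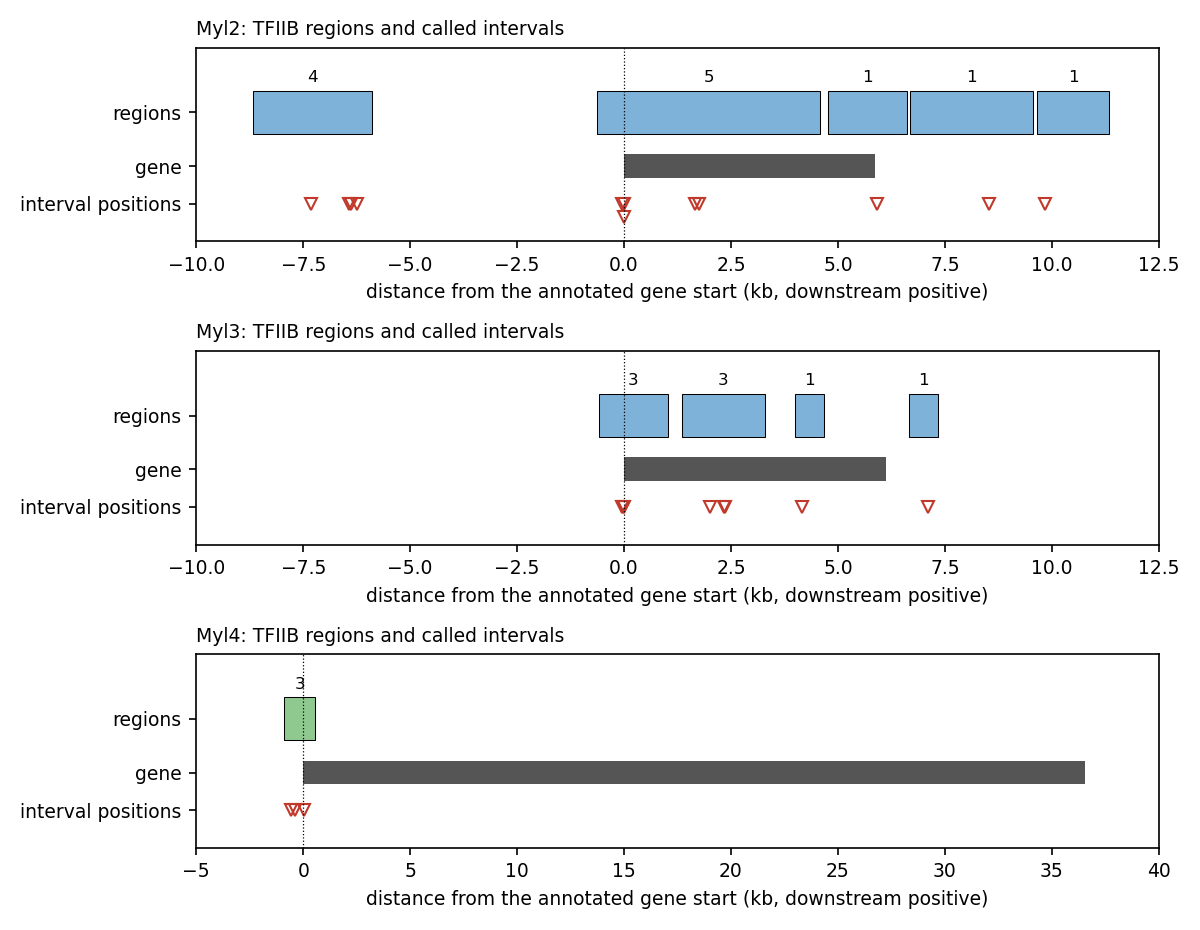
TFIIB regions (boxes, with the number of called intervals above), gene bodies (dark bars) and interval positions (triangles) of Myl2, Myl3 and Myl4, by distance from the annotated start in kb; blue boxes have no CpG island and the green box has 1. Myl2 and Myl3 each show 3 intervals at the start and further regions along the gene, and the 36556 bp Myl4 gene shows 1 region, at its start.

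Myl3, on chromosome 9 (110666185 to 110672298, plus strand), had a compact start region and a second site inside the gene. The start region, chr9:110665594-110667218, was centred at 221 bp, and its 3 intervals stood at -41, -25 and -9 bp, again within 32 bp. The second region, chr9:110667529-110669488, began 311 bp farther on and had intervals at 2007, 2327 and 2359 bp. That span of 352 bp is wider than at the start. In windows of 400 bp, 16 of 5783 with 3 or more intervals held more than 3, so the count of 1 per library is slightly less secure here. Single intervals followed at 4151 bp, in chr9:110670192-110670865, and at 7095 bp, past the end of the gene, in chr9:110672852-110673516.

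Both ventricular genes therefore had 2 tight groups of 3 intervals within 400 bp, at the start and at 1 other place, a count reached by 9.19% of genes. With a span of 300 bp, Myl2 alone had 2 groups; both spans were chosen after the data were seen. By the deposited gene starts the other place differed, upstream in Myl2 and inside the gene in Myl3. Myl3 had 4 regions in all, a number that 9.21% of genes reached, none with a CpG island.

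Myl4, on chromosome 11 (104411977 to 104448533, plus strand), showed another arrangement. Its only region, chr11:104411078-104412548, held a CpG island and was shared with Cdc27, a subunit gene of the anaphase-promoting complex transcribed in the opposite direction. The starts of Myl4 and Cdc27 lay 43 bp apart in the deposited table and also 43 bp apart in RefSeq. The 3 intervals of the region stood at -553, -393 and 55 bp from the Myl4 start. The positions at -553 and -393 bp lie inside Cdc27, at 510 and 350 bp from its start. The span of 608 bp is far wider than the 32 bp at the Myl2 and Myl3 starts, and in windows of 650 bp 2.324% of those with 3 or more intervals held more than 3. No region was assigned to the rest of the Myl4 gene. Of the 3 genes only Myl4 had no region that names it alone, as was the case for 54.1% of all genes, so signal for Myl4 and for Cdc27 cannot be told apart.

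The criterion used for a start changed the picture for Myl2. A region centred within 1000 bp of the start was found for 2 of the 3 genes, Myl3 and Myl4, and for 76.5% of all genes in the table. The start lay inside a region for all 3, and for 75.6% of all genes. The long Myl2 region covers the start from -634 to 4586 bp, and its centre lies far from the start for that reason.

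The authors' peak value was high for both ventricular light chains and typical for Myl4. This value is the highest signal in any library over the regions of a gene, on a scale that is not stated. Over all genes the median was 34, the quartiles were 24 and 47, and the maximum was 298. Myl3 had 94 and Myl2 had 88, the 95.83rd and 95.19th percentiles of all genes, and Myl4 had 35, the 51.74th. A value at or above that of Myl3 was listed for 4.20%, of Myl2 for 4.88% and of Myl4 for 49.5% of genes. Genes with more regions have more chances of a high value. Among the 317 genes with 5 regions, whose median was 41, Myl2 stood at the 88.64th percentile. Myl3 stood at the 91.14th among 728 genes with 4 regions (median 42), and Myl4 at the 62.17th among 7621 genes with 1 region (median 30). With 1 value per gene and no error, the values of Myl2 and Myl3 cannot be ranked.

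Shared regions limit where each peak value can be placed. Ccdc63 shared 4 of the 5 Myl2 regions and also carried 88. It had no region centred within 1000 bp of its own start, and no interval position there. For Myl3 the neighbour 9430025E04Rik shared the region past the gene end and carried 25, so that region cannot hold the 94, which belongs to 1 of the 3 regions that name Myl3 alone. For Myl4 the 35 belongs to the shared region, and Cdc27 carried the same 35.

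**Figure D2:**
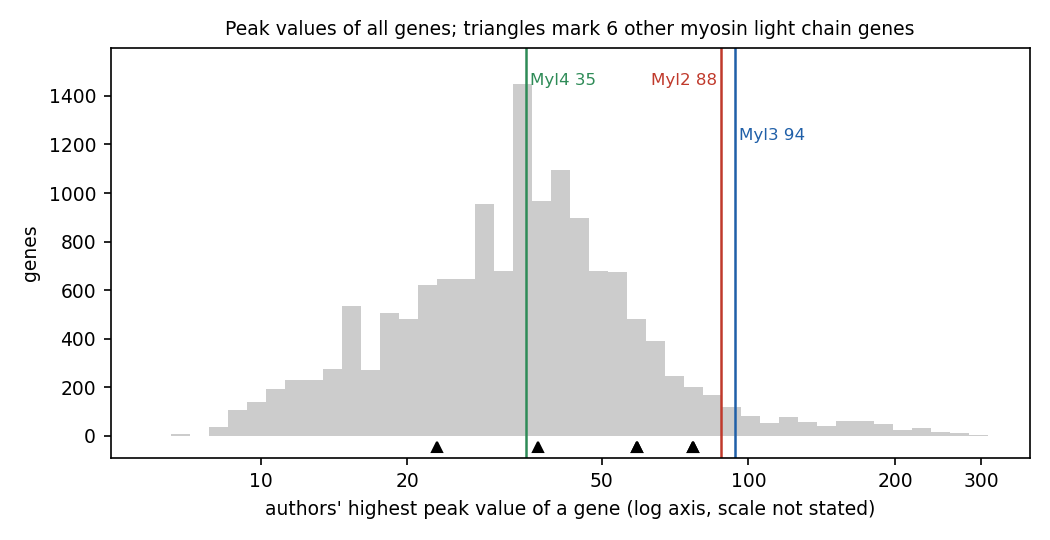
Histogram of the authors' highest peak value over 14469 genes (log axis, scale not stated), with lines at Myl4 (35), Myl2 (88) and Myl3 (94) and triangles at the values of 6 other myosin light chain genes, 2 pairs of which coincide at 59 and 77. Myl2 and Myl3 lie in the upper tail and Myl4 near the middle.

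TFIIB regions covered more of Myl2 and Myl3 than of most genes of their size. Of the 5875 bp of Myl2, 96.87% lay inside regions, of the 6113 bp of Myl3 59.95%, and of the 36556 bp of Myl4 1.56%. At least 50% of the gene was covered in 5.25% of genes, whose median length was 1500 bp. Among 1826 genes of 4000 to 8000 bp, a range chosen after these values were seen, the median covered share was 11.38% and the 95th percentile 41.85%. In this class 3 genes, Myl2 included, reached the share of Myl2, and 30, Myl3 included, reached that of Myl3. Of the 291 genes in the class with no CpG island in any region, whose median was 6.44%, Myl2 had the highest share and Myl3 the next, followed by the cardiac actin gene Actc1 at 53.91%. Counting regions of 2 or more intervals only, the shares fell to 78.06% for Myl2 and 48.94% for Myl3, which still ranked 1 and 2 of these 291 genes. Every region that overlaps Myl2 also names Ccdc63, so its share was 0% with regions that name Myl2 alone. Regions are merged over libraries, so the covered share in a single heart may be smaller. The share and size class of Myl2 rest on its deposited length of 5875 bp. Its RefSeq starts lie 20749 and 20284 bp from the RefSeq gene end, outside the range of 4000 to 8000 bp.

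**Figure D3:**
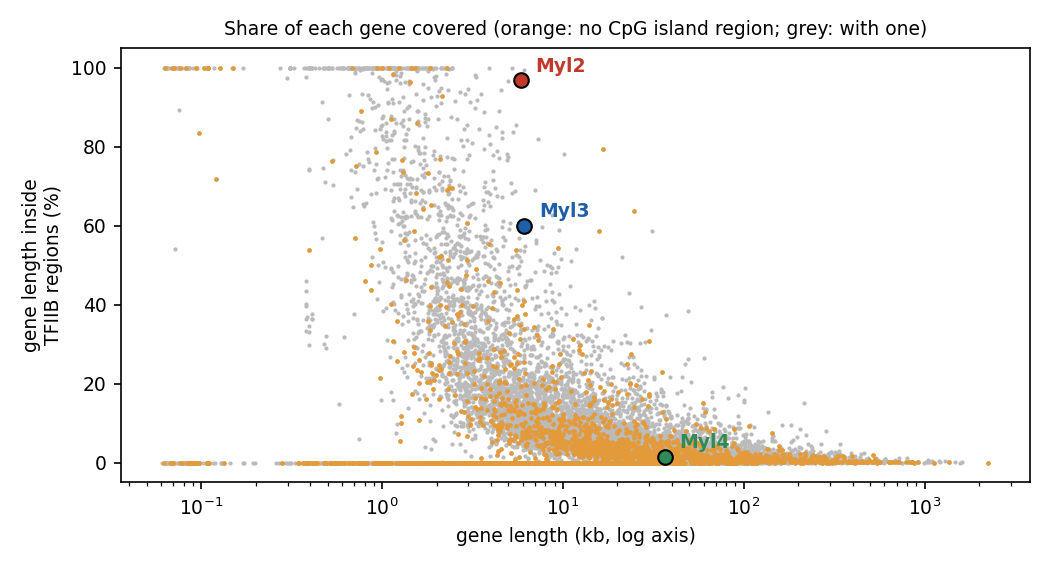
Share of each gene's length inside TFIIB regions (%) against gene length (kb, log axis), 1 point per gene, orange where no region of the gene has a CpG island and grey otherwise. Myl2 (96.87%) and Myl3 (59.95%) stand above most genes of similar length, and Myl4 (1.56%) lies with other long genes.

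Other myosin light chain genes ranged from a pair with high signal to genes that no region named. Of 9 genes, 6 were named by a region, against 61.6% of 21031 protein-coding genes. A start-site region, centred within 1000 bp, was found at 5 (55.6%, against 49.4% of protein-coding genes). Of the 6 named by a region, 2, Myl6 and Myl12b, had 3 intervals within 100 bp of the start, against 16.3% of all genes in the table. With so few genes, this count shows no departure from that share. The 6 named genes had a median peak value of 59. Myl6, the essential light chain gene of smooth muscle and nonmuscle myosin, and its neighbour Myl6b shared all 4 of their regions and both carried 77. Myl12a and Myl12b, nonmuscle regulatory light chain genes listed under older names, shared 4 regions and both carried 59. Myl9, the smooth muscle regulatory light chain gene, had 1 region of 1 interval and a value of 23. Mylpf, the fast skeletal regulatory light chain gene, had a value of 37 from 1 region centred 3107 bp from its start. None of the 20364 regions, which are numbered without a gap, named Myl7, and Myl1, a fast skeletal light chain gene, and Myl10 were not named either.

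Of 11 genes that act on light chain phosphorylation, 10 were named by a region, against 61.6% of protein-coding genes, and their median peak value was 57. A start-site region was found at 7 of the 11 (63.6%, exact 95% interval 30.8 to 89.1%), against 49.4% of protein-coding genes. Mylk3, the cardiac kinase of Myl2, had 1 region with 3 intervals within 100 bp of its start, no CpG island and a value of 58. A set of 3 such intervals was also found at Ppp1r12b and Ppp1r12c, regulatory subunits of myosin phosphatase, with 45 and 49. Ppp1r12a, another such subunit, had 90, and Dapk3, a kinase that can act on light chains, had the highest value of the list, 222. None of the 6 Dapk3 regions covered its start, and the nearest was centred 1056 bp from it, so the 222 cannot be placed at the start. Mylk, the smooth muscle kinase gene, had the lowest, 17, and its nearest region centre lay 124689 bp from the annotated start.

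The light chains' partners in the sarcomere were counted by the same start criterion, which 16.3% of all genes in the table met. All 5 thin filament genes had 3 or more intervals within 100 bp of the start, as did 7 of the 12 thick filament and assembly genes that a region named, out of 13. Those 7 were Myh6, Mybpc3, Ttn, Myom1, Smyd1, Unc45b and Trim63. In Myh6, the heavy chain that carries Myl2 and Myl3 in the adult mouse ventricle, the start had 3 such intervals and the regions covered 63.70% of the gene. Thin filament genes had a median peak value of 110, with Actc1 at 207 and Tnni3, the cardiac inhibitory troponin, at 45. The thick filament list had a median of 45.5, from Mybphl at 11 to Ttn, encoding titin, at 106. Of 8 atrial and fetal genes, 4 were named by a region, against 61.6% of protein-coding genes. Of these 4, 1 gene, Nppb, had 3 intervals at the start, a share that does not stand apart from that of all genes.

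Among 16 cardiac transcription factors, 15 were named by a region, against 61.6% of protein-coding genes. Their median peak value was 59, from Tbx5 at 18 to Tbx20 at 135. A set of 3 intervals lay within 100 bp of the start at 4 of them, Mef2d, Nkx2-5, Tbx20 and Myocd, against 16.3% of all genes in the table. A CpG island lay in at least 1 region of 14 of these 15, and of 11099 of the 12952 protein-coding genes that a region named. Srf, the factor that binds CArG boxes, had a value of 35.

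**Figure D4:**
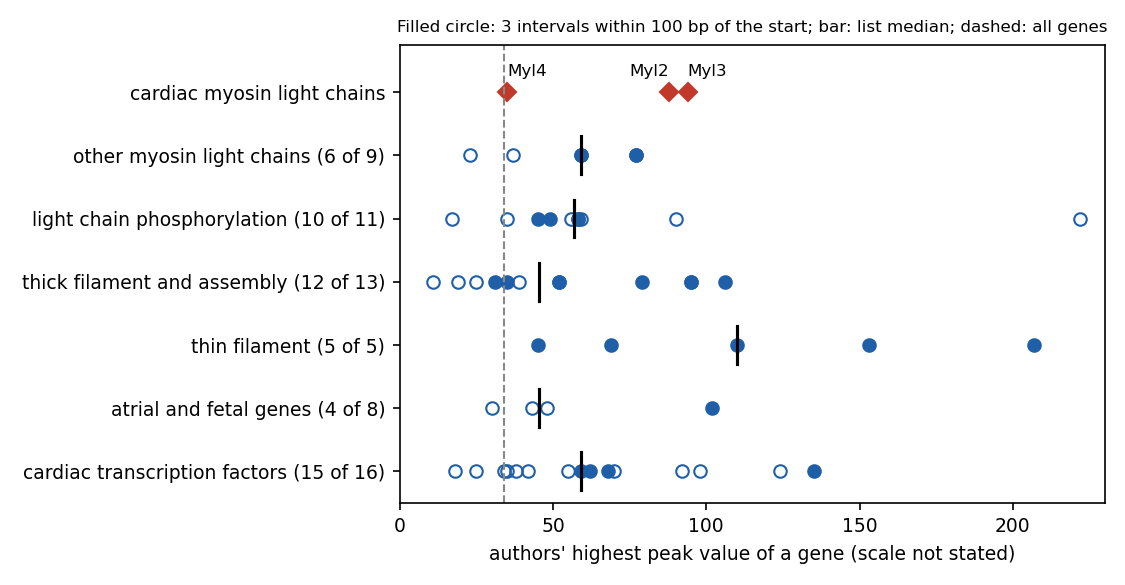
Authors' highest peak value (scale not stated) of the 3 cardiac myosin light chain genes (diamonds) and of the genes of 6 lists that a region named (circles, with their number of the list in brackets), filled where 3 or more intervals lay within 100 bp of the start; bars are list medians and the dashed line is the median of all genes, 34. Myl2 (88) and Myl3 (94) lie above the medians of 5 lists and below that of the thin filament genes (110).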

How the data were processed

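Per the labels' protocols, a service company performed the chromatin immunoprecipitation, made the libraries and sequenced them on Illumina instruments; per the submitters' processing notes, the build was mm9. No source used here states the aligner, interval caller, thresholds, scaling or how input DNA was used. The deposited peak value is a signal, the maximum over a gene's regions and over libraries, so unequal depth could affect it. The authors deposited 15 columns of per-library values whose codes match no sample label; these were not used, and the planned values per group were not computed. The tables were read with Python 3.11.15 and pandas 2.3.3. Start-site regions were those centred within 1000 bp of a gene start. Interval positions were read from the gene table without library names; what point of an interval the header means is not stated. In regions of 1 interval it lay inside the region in 99.97% of cases, a median of 69 bp from the centre. A percentile is the mean of the shares of genes below and at or below a value. Exact (Clopper-Pearson) 95% binomial intervals were used to judge whether shares moved, and cover counting only. Gene lists were matched by gene ID through the RefSeq table of GRCm38.p6, which held 13659 of the IDs. Motifs were searched on both strands. Coverage, cluster, percentile and motif procedures were tested on simulated data. The planned comparison of protein sequences was not made. The members, lists and criteria were chosen with earlier results of these data known. Named genes are the members, genes that share a region with them, their nearest neighbours, all other myosin light chains and the extremes of each list; further genes were named after their values were seen.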

Additional observations from a re-analysis of the deposited data

How the results depend on the processing

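The number of the 3 genes with a region centred at the start stayed at 2 or became 3 under the alternatives, except that it was 1 when regions shared with another gene were left out. Regions per gene depended on the criterion. Myl2 had 2 with regions of 2 or more intervals, 2 with regions overlapping the gene, 2 with most of the region inside it, and 1 with unshared regions. Myl3 had 2 with regions of 2 or more intervals, and Myl4 had 0 with unshared regions and 0 with most of the region in the gene. Among genes with the same number of regions, Myl2, Myl3 and Myl4 stood at the 88.64th, 91.14th and 62.17th percentiles of peak value. Among genes without a CpG island region, the peak values of Myl2 and Myl3 stood at the 98.26th and 98.39th percentiles. The Myl4 value would stand at the 85.29th there, but Myl4 is not such a gene, since its region holds a CpG island. Among genes with a start-site region Myl4 stood at the 47.88th percentile. Of 39 alternative list shares 34 stayed inside the counting interval. These intervals are wide because the lists are short, so staying inside does not show that a share was stable. With centres within 500 bp, the thin filament share fell from 100% to 60% of 5 genes and still lay inside its interval. With centres within 5000 bp, thick filament genes reached 92.3%, and cardiomyocyte, smooth muscle and fibroblast markers 100%; cardiomyocyte markers also reached 100% when the start had to lie inside a region. In the 100 bases before the start, Myl3 kept 3 and Myl4 0 motif matches. Alternatives added after seeing the data moved the genes with 2 groups of 3 intervals to 1 when the span was 300 bp. They also moved the covered share to 78.06% (Myl2) and 48.94% (Myl3) with regions of 2 or more intervals, and to 0% for Myl2 and Myl4 with unshared regions. The alternatives change the regions, reference genes or window counted; no other cause was tested. No paired analysis was possible because each group has 1 library. No library could be left out, since values are over all libraries, and depth is unknown.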

Other observations

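Neighbouring genes that share no region with the cardiac light chains had lower peak values than Myl2 and Myl3, as did most genes. A value at or above that of Myl2 was listed for 4.88% of all genes, and of Myl3 for 4.20%. Cutl2, the nearest gene in the table before Myl2, had a peak value of 20, and Pthr1 (now Pth1r), the parathyroid hormone receptor gene before Myl3, had 17 from 3 regions. Itgb3, the integrin beta 3 gene after Myl4, had 14, with 1 interval position within 100 bp of its start. These are single values without error.

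The RefSeq table of GRCm38.p6 lists 2 starts for Myl2, with distances of 20749 and 20284 bp to the gene end, where the deposited mm9 table gives a gene of 5875 bp. Whether the TFIIB region centred at -7287 bp lies at either RefSeq start was not tested. The builds differ in coordinates, and the annotations need not share a Myl2 gene end, so distances to that end do not place these starts.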
